A study of Mus musculus with 25 samples.

Results

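The chromatin interactions of the Pou5f1 locus were taken from the lists of high-confidence interactions that the authors deposited for 9 groups of mouse libraries. Each list holds pairs of 10 kb bins on the same chromosome that were found in contact. A pair belonged to the locus when it touched the bin that holds Pou5f1, chr17:35500001-35510000 (mm10), or the bin on either side, so that the window ran from 35490001 to 35520000. The rule found 34 distinct pairs among 493983 in all lists, and 17 of the 34 touched the Pou5f1 bin itself. The bin upstream of Pou5f1 has no gene in the authors' gene columns, and the bin downstream holds Tcf19 and Cchcr1.

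HiChIP, which joins DNA ends that lie together in the nucleus and then enriches them with an antibody, was done for H3K27ac, the acetylated histone found at promoters and enhancers in use, and for the transcription factor KLF4. Hi-C, without an antibody, was done with the Arima kit. All cells were fixed with 1% formaldehyde. The fibroblasts (MEFs) came from E13.5 embryos heterozygous for an Oct4-GFP reporter, a doxycycline-inducible cassette of the 4 factors OCT4, KLF4, SOX2 and MYC (OKSM) and the transactivator rtTA3. They were collected at passage 3 (2 H3K27ac and 2 Hi-C libraries). The same kind of cells received doxycycline and ascorbic acid and were collected as a bulk on day 3 (3 KLF4 libraries) or as sorted SSEA1-positive cells on day 6 (4 KLF4 libraries). V6.5 embryonic stem (ES) cells were grown in 2i medium (2 H3K27ac, 4 KLF4 and 2 Hi-C libraries). A line named TKO, which the labels do not expand and give the cell type V6.5, was grown in 2i, with no doxycycline named (0 h) or with doxycycline for 24 h (3 H3K27ac libraries each). The cassette of the reprogrammable cells carries a copy of the OCT4 coding sequence and the reporter is built on Oct4 sequence. Reads from either can map to Pou5f1 in the MEF, day 3 and day 6 libraries, and their part in the values was not tested.

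Pou5f1 encodes OCT4, the POU-family transcription factor that, with SOX2 and NANOG, holds ES cells in the pluripotent state. The gene is silent in fibroblasts and is switched back on during reprogramming. In ES cells it is driven by a promoter and by a proximal and a distal enhancer that lie a short way upstream and therefore in the same 10 kb bin. KLF4, one of the reprogramming factors, is a zinc finger protein that binds CACCC and GC-rich boxes.

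In RefSeq (GRCm38.p6, the assembly that mm10 names), Pou5f1 lies on the plus strand at 35506032 to 35510777, so its end runs into the downstream bin, and the noncoding gene Gm32362 fills 35500641 to 35505737 of the Pou5f1 bin. Tcf19 starts at 35516837 on the minus strand and Cchcr1 at 35517049 on the plus strand, so both promoters lie in the downstream bin. The sequences shown are the 250 bases before the Pou5f1 start (chr17:35505782-35506031, plus strand) and the 211 bases between the starts of Tcf19 and Cchcr1 (chr17:35516838-35517048, plus strand). They are the promoters of the bins with the strongest pairs in the H3K27ac and in the KLF4 lists of ES cells. Capitals mark CACCC and GGGCGG on either strand.
Pou5f1 promoter: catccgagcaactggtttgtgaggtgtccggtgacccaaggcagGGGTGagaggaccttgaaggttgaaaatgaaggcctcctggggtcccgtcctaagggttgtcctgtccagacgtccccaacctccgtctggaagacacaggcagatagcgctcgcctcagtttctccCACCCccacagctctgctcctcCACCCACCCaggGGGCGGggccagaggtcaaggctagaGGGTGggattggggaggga
Tcf19 to Cchcr1: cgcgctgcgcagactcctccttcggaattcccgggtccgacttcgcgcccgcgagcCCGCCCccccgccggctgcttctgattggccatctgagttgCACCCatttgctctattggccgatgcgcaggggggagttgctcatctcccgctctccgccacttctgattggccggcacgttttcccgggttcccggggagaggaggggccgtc
The Pou5f1 stretch held CACCC 5 times, counting overlapping matches, and GGGCGG 1 time. The stretch between Tcf19 and Cchcr1 held each of them 1 time. Among the 250-base stretches before 32851 RefSeq starts, 52.0% held CACCC and 0.667% held it 5 or more times, and 32.7% held GGGCGG. A match to these letters is a description and not a measured binding site.

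Strength is given as CPM, the count of a bin pair scaled to the total contacts of its chromosome in the same library. The 21 HiChIP libraries held 48.7 M to 181 M contacts in all and 1.66 M to 6.28 M on chromosome 17. Values of the 4 Hi-C libraries are scaled by constants of unstated origin and given as Hi-C signal, so their full depth is unknown. A HiChIP list holds only pairs at or above 3 CPM in replicates 1 and 2 (H3K27ac lists: in every replicate), and a Hi-C list only pairs at or above 15. Listed pairs also had a p in the authors' deposited table of at most 0.1 (HiChIP) or 0.01 (Hi-C). A pair that is not listed is therefore not shown to be absent, nor to lie below the minimum strength. In the KLF4 lists, ES replicates 3 and 4 and day 3 replicate 3 reach 0 at some pairs genome-wide and day 6 replicates 3 and 4 go down to 0.567 and 0.343 CPM, so those libraries were not held to the minimum. ES KLF4 replicates 1 and 2 also stood apart from replicates 3 and 4 (a chi-square of 1.25 to 1.503 for each degree of freedom between them, 1.01 and 0.966 within). They agreed within sampling noise inside each pair, as did TKO 24 h replicates 1 and 3, and each such pair was counted as 1 replicate. Marker bins were counted together with the bin on either side. Bins of the ES markers Nanog, Zfp42 and Sall4 had 2 listed interactions together in the MEF H3K27ac list and 86 in the ES list. Those of the fibroblast markers Thy1, Col1a1, Vim and Pdgfrb had 56 and 2. The ES markers had 83 and 81 in the TKO lists, 2 on day 3, 1 on day 6 and 13 in ES KLF4, and the fibroblast markers 16 and 10, 7, 0 and 8. In Hi-C the ES markers had 8 in MEFs and 34 in ES cells, and the fibroblast markers 50 and 75, more in ES cells where the H3K27ac list had fewer. Sox2, Esrrb and Prrx1 have no bin in the gene columns.

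The Pou5f1 locus had more listed interactions in pluripotent cells than in fibroblasts with both H3K27ac HiChIP and Hi-C, and more in ES cells than on day 3 or day 6 with KLF4. The median of the 12692 genes with a single bin, counted the same way, was also higher in ES cells. It was 2 in MEFs and 6 in ES cells for H3K27ac, and 8 and 18 for Hi-C. For KLF4 it was 1 on day 3, 0 on day 6 and 2 in ES cells. In bulk libraries, more cells with a contact and a more frequent contact in each cell cannot be told apart. The MEF H3K27ac list held 5 pairs at the locus and none that touched the Pou5f1 bin. The ES list held 29 pairs, 17 of them at the Pou5f1 bin. The TKO lists held 26 pairs (11 at the Pou5f1 bin) at 0 h and 21 (9) at 24 h. The KLF4 lists held 4 pairs (1) on day 3, 2 pairs (0) on day 6 and 13 pairs (7) in ES cells. The Hi-C lists held 4 pairs (0) in MEFs and 17 (5) in ES cells. The lists differ in length, from 4047 pairs for day 6 KLF4 to 318622 for ES Hi-C. Cut to the length of the shortest list of their assay, the H3K27ac lists held 5 pairs in MEFs, 26 in ES cells and 19 in each TKO group. The KLF4 lists then held 1 pair on day 3, 2 on day 6 and 5 in ES cells, and the Hi-C lists 4 and 13.

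Of the 34 pairs, 27 were listed only in ES-type groups (ES or TKO) and 7 in a group of fibroblast origin (MEF, day 3 or day 6). The share in ES-type groups alone was 79.4% here and 45.7% over all 493983 listed pairs. The Hi-C lists, with 228083 pairs in MEFs and 318622 in ES cells, weigh heavily in the second share. At the locus they held 4 and 17 of the 34 pairs, so the shares rest on unlike mixes of assays. Among the 17 pairs of the Pou5f1 bin, 1 was listed in a group of fibroblast origin, its contact with the Tcf19 and Cchcr1 bin on day 3 of reprogramming. The pairs present in the most lists, 8 of 9, were those of the Tcf19 and Cchcr1 bin with the bins 10, 20 and 40 kb further downstream, of which the second holds Psors1c2 and the third Cdsn. All 3 ES-type H3K27ac lists shared 20 pairs, 9 of them at the Pou5f1 bin.

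**Figure D1:**
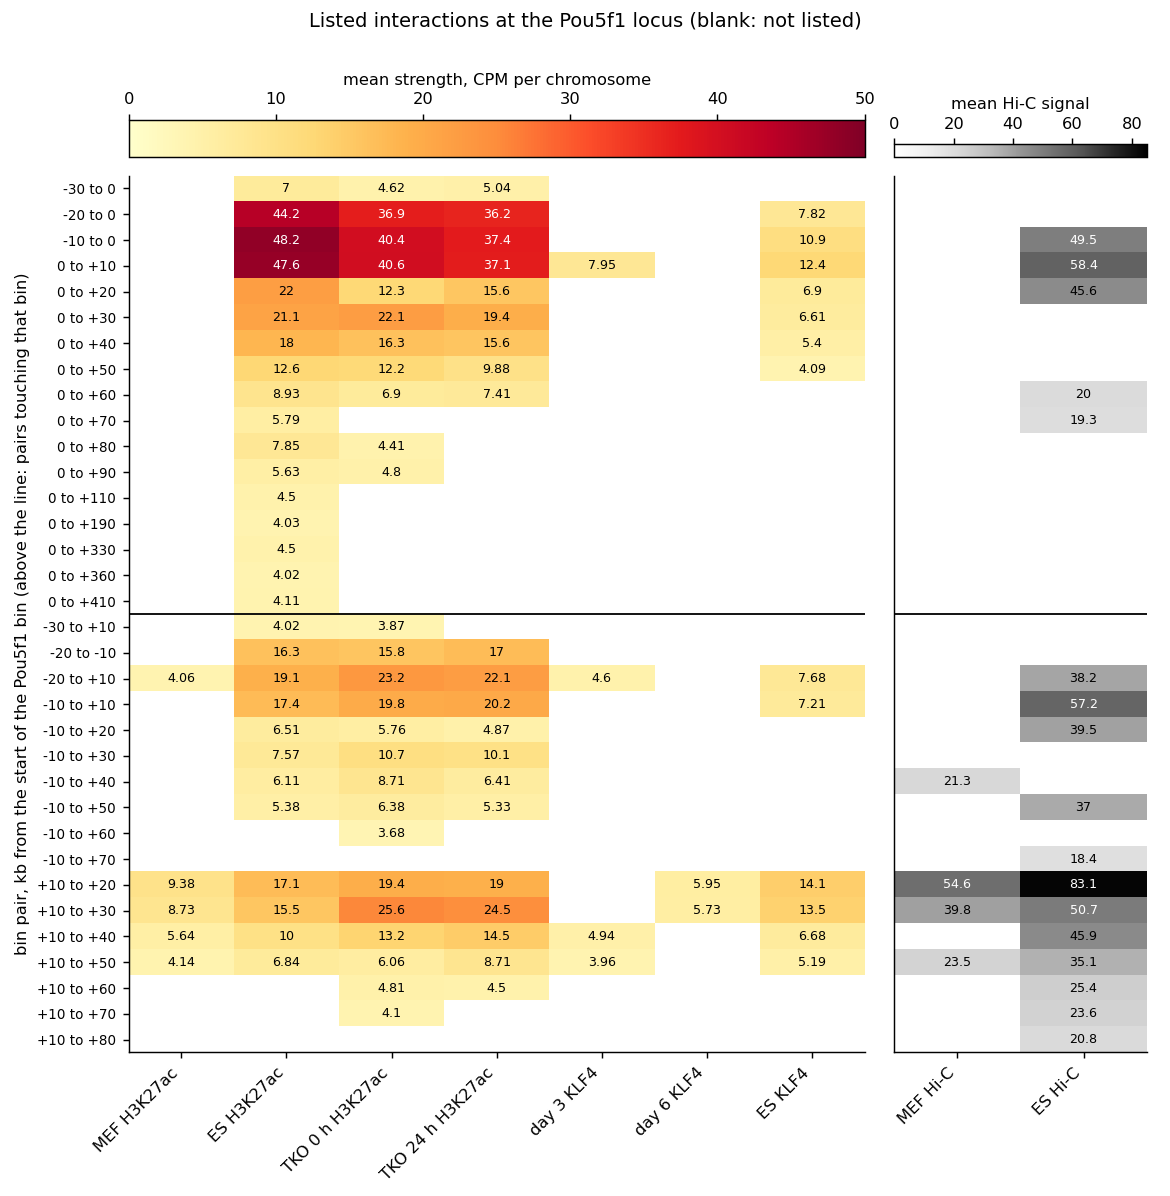
Mean strength over the libraries of each group for the 34 bin pairs of the locus, in CPM for HiChIP (left) and as Hi-C signal (right). Rows give both bins as kb from the start of the Pou5f1 bin, with the 17 pairs of that bin above the line, and a blank cell means that the pair was not listed. Above the line the ES H3K27ac column is full, with 17 cells. TKO 0 h has 11 filled cells there, TKO 24 h 9, ES KLF4 7 and ES Hi-C 5. The columns of fibroblast origin have 1 there, on day 3.

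Set against all bins of chromosome 17 that have a listed pair, the Pou5f1 bin stood at percentile 97.1 of 2239 bins in the ES H3K27ac list, with 66 bins having more pairs. It stood at percentile 96.2 of 1491 in the ES KLF4 list and at percentile 53.5 of 4167 in the ES Hi-C list. In ES cells the bin was thus near the top for listed H3K27ac and KLF4 interactions and near the middle for Hi-C. In the TKO H3K27ac lists it stood lower, at percentile 91.5 at 0 h (215 bins with more) and 88.5 at 24 h (284 bins with more). The 12692 genes with a single bin were also counted with the 3-bin window. Among them Pou5f1 stood at percentile 96.3 for ES H3K27ac (29 pairs, median 6), 98.6 for ES KLF4 (13, median 2) and 49.9 for ES Hi-C (17, median 18). Among the 714 such genes of chromosome 17 it stood lower, at 85.6, 94.1 and 40.1. The short lists of fibroblast origin also placed it above the median of all such genes for H3K27ac and KLF4, at percentile 75.9 in MEFs (5 pairs, median 2), 87.8 on day 3 (4, median 1) and 96.5 on day 6 (2, median 0), and below it for MEF Hi-C, at 32.1 (4, median 8). On chromosome 17 alone these were 49.4, 74.2, 87.1 and 26.5.

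The partners of the locus lay in 15 other bins, 2 upstream and 13 downstream. In 11 of the 15 bins the authors' columns gave an H3K27ac ChIP peak at both 0 h and 24 h in TKO cells, and in 2 a peak at 24 h only. The bins with H2-Q10 and the bin 20 kb downstream of Pou5f1 had none. The window's own 3 bins all had a peak at both times. How many of all listed bins have such a peak was not counted, so these numbers describe the locus alone. The nearest upstream partner, 20 kb from Pou5f1 at 35480001 to 35490000, has no gene in those columns and a peak at both times. The next one holds H2-Q10, a class I histocompatibility gene. Downstream partners within 60 kb hold Psors1c2, Cdsn, which encodes the skin adhesion protein corneodesmosin, and 2300002M23Rik, with bins between them to which the authors' columns give no gene. In RefSeq the body of Cchcr1 (35517049 to 35531015) covers the bin 20 kb downstream, and that of Cdsn (35543101 to 35557180) reaches into the bin 40 kb downstream. The farthest partners hold Tubb5, a beta-tubulin gene, then Nrm, Ppp1r18os and Ppp1r18, of which Nrm encodes a nuclear envelope protein, and then Ppp1r10, Atat1 and Mrps18b, which encode a regulator of protein phosphatase 1, an alpha-tubulin acetyltransferase and a mitochondrial ribosome protein.

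The 3 longest pairs, at 330, 360 and 410 kb, joined the Pou5f1 bin with these last gene-bearing bins and were listed for ES H3K27ac alone. The contact with the Ppp1r10 bin measured 4.87 and 3.35 CPM in the 2 ES libraries. The contact with the Nrm bin measured 3.57 and 4.46 CPM and that with the Tubb5 bin 4.06 and 4.94 CPM. All 3 lay close to the minimum of 3 CPM, rested on 21 to 31 contacts per library, and had an FDR of 1 in the authors' deposited table. The longest pairs in the other lists spanned 90 kb (TKO 0 h), 60 kb (TKO 24 h), 50 kb (ES KLF4), 40 kb (MEF H3K27ac and day 3 KLF4), 20 kb (day 6 KLF4), 50 kb (MEF Hi-C) and 80 kb (ES Hi-C). The bin of Ppp1r10 is the last one before a domain boundary. In the authors' domain lists the locus lay in a domain of 34600001 to 35920000 in MEFs and of 34400001 to 35920000 in ES cells, with the same downstream end, and all 34 pairs fell inside both.

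Upstream, the interactions stopped within 30 kb of the Pou5f1 bin. No list held a pair that touched any of the 12 bins from 35350001 to 35470000, a stretch of 120 kb where RefSeq places 10 genes, 5 of them of the H2-Q family. H2-Q genes are near-identical copies of one another, so reads from them, and from H2-Q10, may have been placed or dropped in ways that the lists do not show, and this was not tested.

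**Figure D2:**
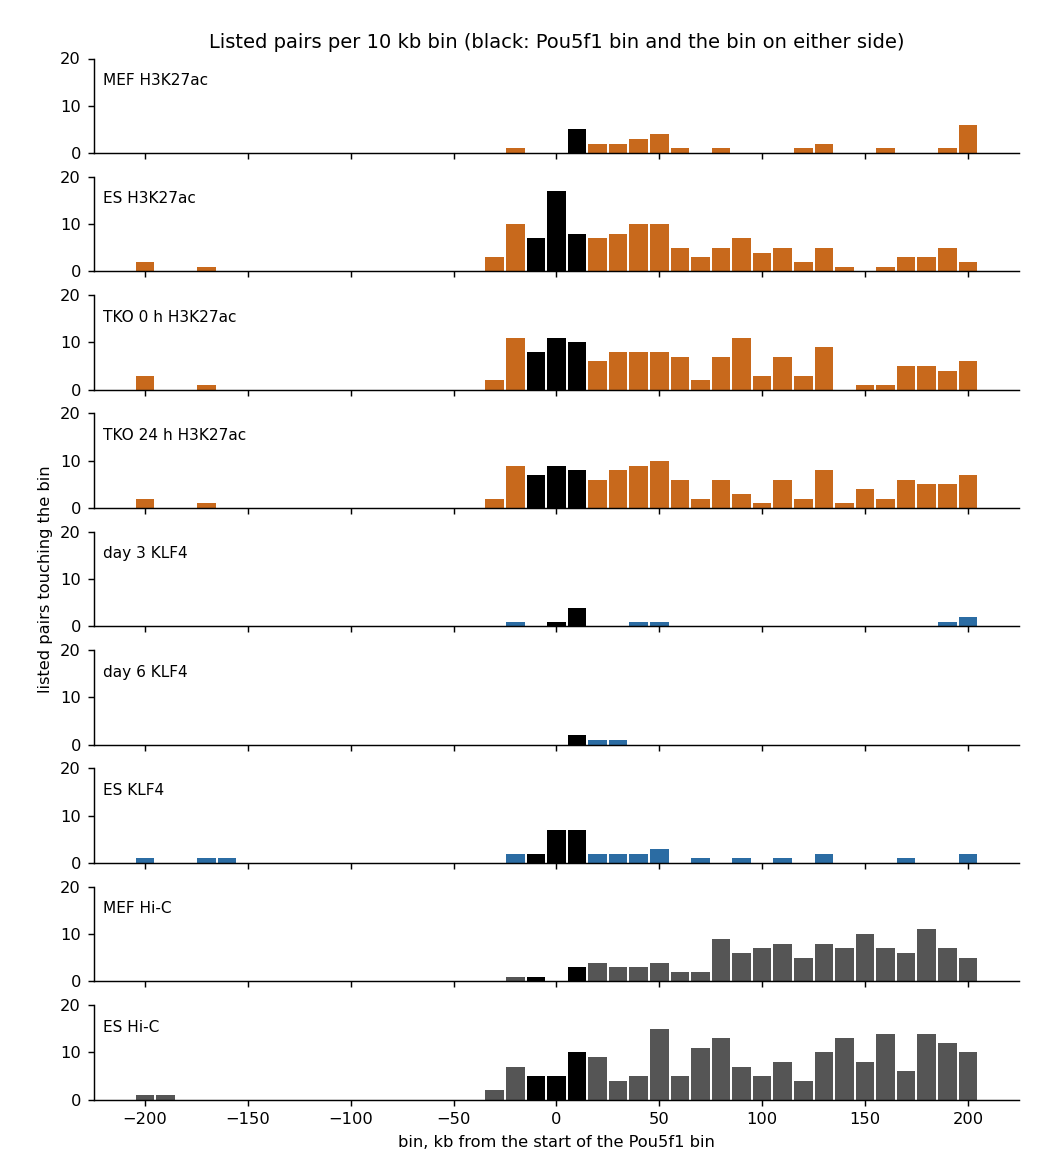
Number of listed pairs that touch each 10 kb bin within 200 kb of the Pou5f1 bin, 1 panel per list, with the window of 3 bins in black. The Pou5f1 bin is the tallest bar of the ES H3K27ac panel, at 17 pairs, and has no bar in the MEF H3K27ac, day 6 KLF4 and MEF Hi-C panels, while the 12 bins upstream of H2-Q10 are empty in all 9.

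In ES cells the strongest H3K27ac interactions of the locus all met at the Pou5f1 bin. Its contact with the bin directly upstream measured 46.0 and 50.3 CPM (48.2 ± 3.10, SD, n = 2). Its contact with the Tcf19 and Cchcr1 bin measured 44.5 and 50.7 CPM (47.6 ± 4.36). The peak-bearing bin 20 kb upstream met it at 46.6 and 41.7 CPM (44.2 ± 3.44). These 3 pairs overlapped in their library values and stood above every other pair of the list at the locus. Next came the bins 20 kb downstream, at 20.6 and 23.4 CPM, and 30 kb downstream with Psors1c2, at 20.1 and 22.1 CPM. The 3 strongest were at percentiles 98.8 to 99.5 of the chromosome 17 pairs of the same span in that list. In the authors' deposited table, 9 of the 29 pairs, 7 of them at the Pou5f1 bin, had an FDR under 0.1. The share of the whole list under that FDR was not counted, so this number describes the locus alone.

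With H3K27ac the 2 sides of the gene were alike at 10 kb and unlike at 20 and 30 kb. At 10 kb the upstream contact was 0.994 to 1.03 times the downstream one in ES cells. It was 0.903 to 1.09 times at TKO 0 h and 0.856 to 1.17 times at TKO 24 h. At 20 kb the upstream contact was 1.78 and 2.26 times the downstream one in the 2 ES libraries, 2.76 to 3.27 times in the 3 TKO 0 h libraries and 1.74 to 3.08 times in the 3 TKO 24 h libraries, so upstream was higher in 8 of 8. At 30 kb the order turned, and the contact with the H2-Q10 bin was 0.193 to 0.339 times the contact with the Psors1c2 bin over the same 8 libraries. Both bins at lower strength, 20 kb downstream and H2-Q10, are those without an H3K27ac peak in the authors' columns. The ES Hi-C list held the contact 20 kb downstream, at 47.0 and 44.3 Hi-C signal, and did not hold the one 20 kb upstream. In ES KLF4 the ratio at 20 kb ran from 0.710 to 2.00 and was above 1 in 2 of the 4 libraries, replicates 3 and 4. No test was run on these ratios, which were noticed in the data.

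**Figure D3:**
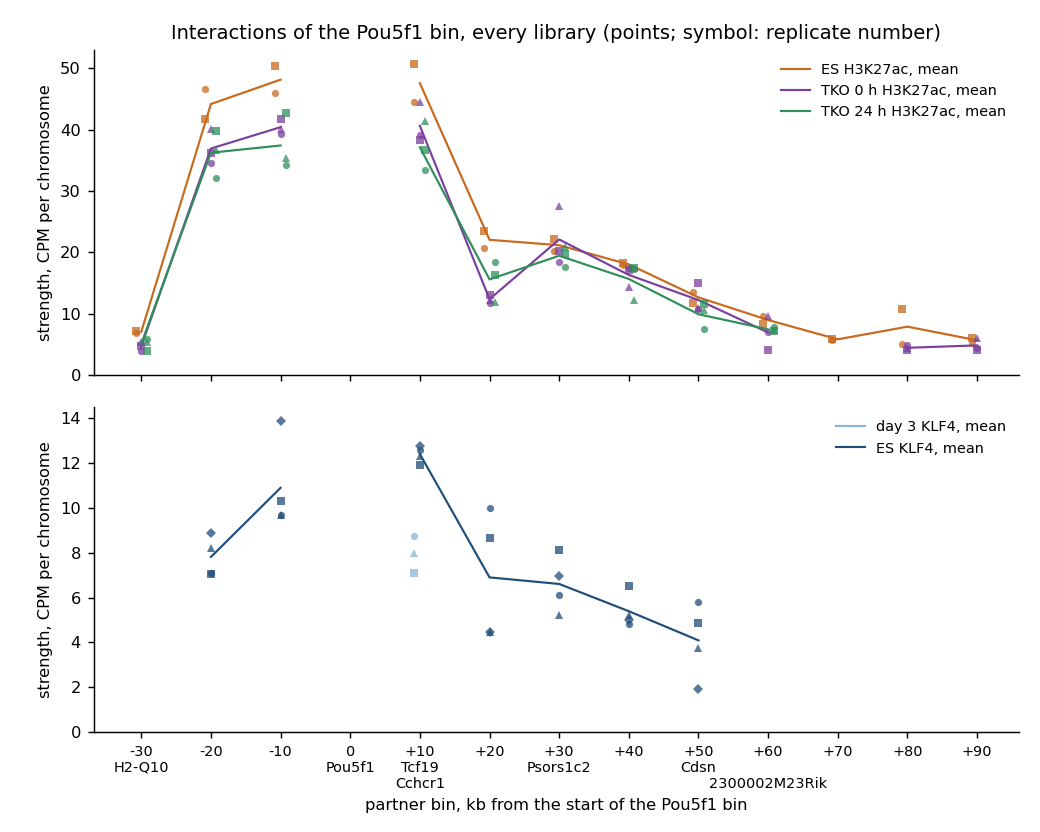
Strength in CPM (vertical axes, from 0) of each listed contact of the Pou5f1 bin within 90 kb against the position of its partner, for H3K27ac (upper) and KLF4 (lower), with a point per library and a line through the means. The H3K27ac curves hold 32.2 CPM or more in every library 20 and 10 kb upstream and 10 kb downstream, then drop at 20 kb downstream in all 8 libraries.

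The question put by the comparison of MEFs with ES cells was which contacts differ between the start and the reference point of reprogramming. All 5 MEF H3K27ac pairs were also listed in ES cells, where they made up 17.2% of the 29. Over the whole lists, 29.4% of the MEF pairs and 23.7% of the ES pairs were common. Each of the 5 joined the Tcf19 and Cchcr1 bin to another bin. The contact of that bin with the peak-bearing bin 20 kb upstream of Pou5f1, which spans the gene, measured 5.07 and 3.04 CPM in MEFs and 17.4 and 20.9 CPM in ES cells. It rose 4.46-fold (log2 change 2.16 ± 0.26, SE; edgeR quasi-likelihood adjusted p = 2.74e-09), and the libraries of the groups did not overlap. The MEF values rested on 13 and 11 contacts and the ES values on 107 and 131. The contact with the bin 10 kb further downstream measured 7.41 and 11.3 CPM in MEFs and 15.6 and 18.6 CPM in ES cells (1.61-fold, log2 0.68 ± 0.21, adjusted p = 0.00862). Contact of the same bin with the Psors1c2 bin measured 10.5 and 6.92 CPM against 14.6 and 16.4 CPM (1.68-fold, log2 0.75 ± 0.22, adjusted p = 0.00720). The contact with the bin after it measured 5.46 and 5.81 CPM against 9.74 and 10.4 CPM (1.61-fold, log2 0.69 ± 0.25, adjusted p = 0.0308). Contact with the Cdsn bin, at 4.68 and 3.60 CPM against 7.63 and 6.05 CPM, did not pass (log2 0.62, 95% interval 0.034 to 1.205, adjusted p = 0.121). So 4 of 5 pairs were higher in ES cells and none lower, beside 17.6% called higher and 14.4% called lower among 17901 pairs listed in both groups. The median log2 change of the 5 pairs was 0.69, beside -0.037 over all pairs tested. Without TMM factors all pairs tested shifted to a median of 0.21, the genome-wide calls went from 3152 higher and 2569 lower to 4831 and 1426, and 5 of 5 pairs were called.

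The 4.46-fold rise of the pair that spans Pou5f1 passed the threshold under each of 9 alternatives (log2 1.72 to 2.56, largest adjusted p = 2.24e-05). DESeq2 called this pair alone of the 5. Among the 9, the settings without a low-count filter and with every library kept separate only repeated the main fit and add nothing to it. The other 3 calls were smaller: leaving out MEF replicate 1 or 2 or ES replicate 2 left 2 called pairs. The other 24 ES pairs, with all 17 of the Pou5f1 bin, could not be tested because the MEF list does not give their counts.

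KLF4 HiChIP followed the factor through reprogramming. In ES cells the highest mean strengths at the locus were those of the Tcf19 and Cchcr1 bin with the bins 10 and 20 kb further downstream. The first measured 13.9, 16.8, 13.8 and 12.0 CPM in replicates 1 to 4 (14.1 ± 1.75, n = 2 after joining), and the second, with Psors1c2, 12.3, 17.4, 12.7 and 11.7 CPM. The contact between the Pou5f1 bin and the Tcf19 and Cchcr1 bin followed at 12.6, 11.9, 12.3 and 12.8 CPM (12.4 ± 0.203). The library values of these 3 overlapped, and in replicate 4 the highest was the Pou5f1 bin with the bin directly upstream, at 13.9 CPM. The Pou5f1 bin with the bins directly and 20 kb upstream measured 10.9 ± 1.27 and 7.82 ± 1.04 CPM. All 13 ES KLF4 pairs were also in the ES H3K27ac list (74.0% over the whole KLF4 list), where the 3 pairs of the Pou5f1 bin led and these first 2 measured 17.1 and 15.5 CPM on average. No FDR in the authors' table was under 0.1 for any KLF4 pair at the locus, and the share over the whole KLF4 lists was not counted.

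On day 3 the Pou5f1 bin had a single listed KLF4 contact, with the Tcf19 and Cchcr1 bin, at 8.76, 7.10 and 8.002 CPM. In ES cells this contact was higher (1.62-fold, log2 0.70 ± 0.21, edgeR adjusted p = 0.0209), and all 4 ES libraries lay above all 3 day 3 libraries. The contact that spans Pou5f1, from 20 kb upstream to the Tcf19 and Cchcr1 bin, measured 4.93, 4.95 and 3.92 CPM on day 3 and 6.14, 8.14, 7.84 and 8.62 CPM in ES cells (1.74-fold, log2 0.80 ± 0.25, adjusted p = 0.0282). The contacts of the Tcf19 and Cchcr1 bin with the bins 30 kb further downstream and with the Cdsn bin did not pass (log2 0.46, 95% interval -0.031 to 0.94, and 0.47, -0.081 to 1.02). So 2 of 4 common pairs were called higher in ES cells and none lower, beside 3.02% called higher and 4.18% lower among 7387. The median log2 change of the 4 was 0.58, beside 0.0014 over all pairs tested. These 2 calls depended on the libraries and the settings: no pair was called without day 3 replicate 1, 2 or 3, without ES replicate 4, with ES replicates 1 and 2 alone, by DESeq2 or without TMM factors. The log2 changes ranged from 0.57 to 0.83 for the first pair and from 0.57 to 0.97 for the second over these and the other alternatives. Without ES replicate 3, 1 pair was called. With ES replicates 3 and 4 alone, which were not held to the list's minimum, both were called (log2 0.77 and 0.97).

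On day 6 the list held 2 pairs, neither at the Pou5f1 bin. They joined the Tcf19 and Cchcr1 bin to the next bin, at 4.83, 5.32, 7.52 and 6.15 CPM, and to the Psors1c2 bin, at 5.43, 5.32, 7.14 and 5.01 CPM. In ES cells every library was higher at both pairs (lowest 12.0 and 11.7 CPM), and the log2 changes were 0.64 ± 0.20 and 0.66 ± 0.20. Neither passed (edgeR adjusted p = 0.0595 and 0.0545, 0 of 2 called, 2 of 2 at an unadjusted p under 0.05, DESeq2 0), beside 3.37% called among 2076. Without TMM factors, or with every library kept separate, 2 of 2 were called, and without ES replicate 1, 1. Leaving out TMM moved the median of all pairs tested to 0.58. Days 3 and 6 shared no pair at the locus, while over the whole lists 10.9% of the day 3 and 64.0% of the day 6 pairs were common. With 2 pairs on day 6 this cannot be judged against those shares. Each day 6 pair had a day 3 pair within 1 bin at both ends, and no test between the days was possible.

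The TKO comparison asked what 24 h of doxycycline changes in ES-type cells. The contact of the Pou5f1 bin with the bin directly upstream measured 39.3, 41.7 and 40.1 CPM at 0 h and 34.1, 42.7 and 35.4 CPM at 24 h. The contact with Tcf19 and Cchcr1 measured 39.1, 38.3 and 44.5 CPM and then 33.4, 36.6 and 41.3 CPM. Its contact 20 kb upstream measured 34.5, 36.1 and 40.1 CPM and then 32.2, 39.8 and 36.7 CPM. The groups overlapped at all 3. Their log2 changes were 0.017 (95% interval -0.21 to 0.24), -0.020 (-0.25 to 0.21) and 0.10 (-0.13 to 0.33). The 2 other strongest pairs of both lists, the Tcf19 and Cchcr1 bin with the Psors1c2 bin (25.6 ± 0.56 CPM, n = 3, and 24.0 ± 1.92, n = 2) and with the bin 20 kb upstream of Pou5f1 (23.2 ± 3.41 and 22.98 ± 3.66), also overlapped. Of 21 pairs listed at both times, none was called in either direction (edgeR; 2 at an unadjusted p under 0.05, DESeq2 0), beside 2.80% called among 67723.

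The log2 changes of the 21 pairs ran from -0.35 to 0.60 with a median of 0.049 (0.0056 over all pairs tested), and for 20 of them the 95% interval stayed within 2-fold either way. The largest change, singled out after its value was seen, was that of the Tcf19 and Cchcr1 bin with the Cdsn bin, at 6.80, 3.74 and 7.63 CPM and then 9.81, 8.70 and 7.60 CPM (log2 0.60 ± 0.23, adjusted p = 0.181). The next was that of the Pou5f1 bin with the bin 20 kb downstream, at 11.7, 13.1 and 12.3 CPM and then 18.4, 16.3 and 11.9 CPM (log2 0.43 ± 0.18, adjusted p = 0.201). Both groups overlapped at each. Summed over the 20 pairs that all ES-type H3K27ac lists share, the strengths were 342, 337 and 362 CPM at 0 h, 323, 354 and 333 CPM at 24 h and 348 and 367 CPM in ES cells. The 9 of them at the Pou5f1 bin summed to 182, 190 and 205 CPM at 0 h, 174, 195 and 182 CPM at 24 h and 226 and 234 CPM in ES cells. The 2 ES libraries were thus above all 6 TKO libraries for the Pou5f1 bin and within their range, or just over it, for all 20. ES and TKO cells were not tested against each other. The 5 pairs listed at 0 h and not at 24 h measured 3.68 to 4.80 CPM at 0 h, close to the minimum, and no pair was listed at 24 h alone. The 21 common pairs were 80.8% of the 0 h and all of the 24 h pairs, beside 72.6% and 80.4% over the whole lists. The ES list held 3 of these 5, the H2-Q10 bin with the Tcf19 and Cchcr1 bin and the Pou5f1 bin with the bins 80 and 90 kb downstream.

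**Figure D4:**
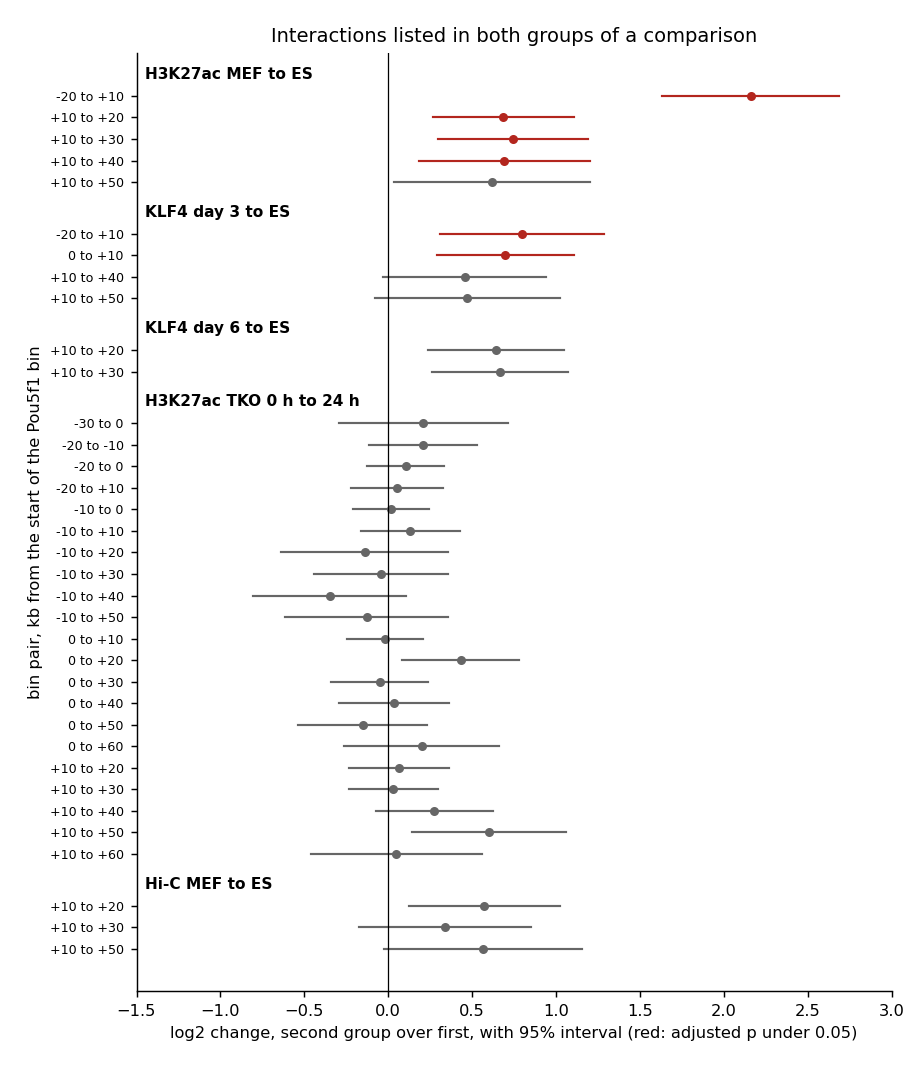
Log2 change (second group over first, points) with its 95% interval (bars) for each pair of the locus listed in both groups of a comparison, from the edgeR fit on all common pairs, with adjusted p under 0.05 in red. The MEF to ES pair from 20 kb upstream to the Tcf19 and Cchcr1 bin stands apart at 2.16, and none of the 21 TKO pairs is red.

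In Hi-C, the Tcf19 and Cchcr1 bin carried 3 of the 4 MEF pairs and 10 of the 17 ES pairs. The contact with the bin 10 kb further downstream was the strongest in both lists, at 53.2 and 56.1 Hi-C signal in MEFs and 80.8 and 85.5 in ES cells (log2 0.57 ± 0.23, edgeR adjusted p = 0.668). The groups did not overlap at this pair. Its contact with the Psors1c2 bin measured 44.6 and 35.0 against 38.6 and 62.8 (log2 0.34, 95% interval -0.17 to 0.85, adjusted p = 0.953), and the groups overlapped. Its contact with the Cdsn bin measured 25.9 and 21.0 against 30.1 and 40.2 (log2 0.56, -0.025 to 1.15, adjusted p = 0.847). None of the 3 common pairs was called (1 at an unadjusted p under 0.05, DESeq2 0), beside 0.0289% called among 124544. The contact of the bin directly upstream of Pou5f1 with the bin 40 kb downstream was listed in MEFs alone of the Hi-C groups, at 23.02 and 19.6. In ES Hi-C the Pou5f1 bin had 5 listed contacts, with the bin directly upstream (57.9 and 41.2), the Tcf19 and Cchcr1 bin (59.1 and 57.7), the bin 20 kb downstream (47.0 and 44.3) and the bins 60 and 70 kb downstream (20.5 and 19.6, 18.1 and 20.6). Of the 17 ES Hi-C pairs, 13 were also in the ES H3K27ac list, which is 76.5% of the first and 44.8% of the second (12.1% and 51.2% over the whole lists), and 9 pairs were in the H3K27ac, KLF4 and Hi-C lists of ES cells.

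The partner bins of Pou5f1 were also listed with one another. Among the 8 bins from 35480001 to 35560000, 28 pairs are possible. The ES H3K27ac list held all 28, each TKO list 27, the ES Hi-C list 20 and the ES KLF4 list 13. The MEF lists held 8 each, day 3 KLF4 held 4 and day 6 KLF4 held 2. Of the 10 pairs in this block that do not touch the window, ES H3K27ac held 10, MEF H3K27ac 3, MEF Hi-C 4, ES Hi-C 9 and the 3 KLF4 lists none. The block was chosen after its values were seen.

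Other genes of the pluripotency network, from a list of 24 of which 22 have a bin (all but Sox2 and Esrrb), were counted with the same 3-bin window. In 21 of the 22 the ES H3K27ac list held more pairs than the MEF list, Stat3 being the exception (4 against 15), and the medians were 0 in MEFs and 16 in ES cells. Pou5f1, at 5 and 29, was exceeded in ES cells by Nanog (45), Dppa5a (45), Mycn (42) and Tet1 (39). In MEFs it was exceeded by Stat3 alone. In ES KLF4 only Mycn had more (16 against 13), and the median was 4. On day 3, Fgf4 and Stat3 had more KLF4 pairs (5 each, against 4 at Pou5f1), and on day 6 none did. Between TKO 0 h and 24 h, 15 of the 22 genes had fewer pairs and 5 more. The whole list was also shorter at 24 h, with 84256 pairs beside 93248. Among 374 pairs of these genes tested, 23 were called lower and 2 higher at 24 h (6.68%, beside 2.80% of all pairs), and at Pou5f1 0 of 21. Over all 67723 pairs tested the calls were mostly lower too, 1487 beside 407 higher. Between MEF and ES H3K27ac, 6 of the 11 testable pairs of these genes were called higher and 2 lower (17.6% and 14.4% of all pairs). Between day 3 and ES KLF4, 3 of 10 were called higher and 1 lower (3.02% and 4.18% of all pairs). Between day 6 and ES KLF4, 1 of 4 was called (3.37% of all pairs), and in Hi-C 0 of 76 (0.0289% of all pairs).

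**Figure D5:**
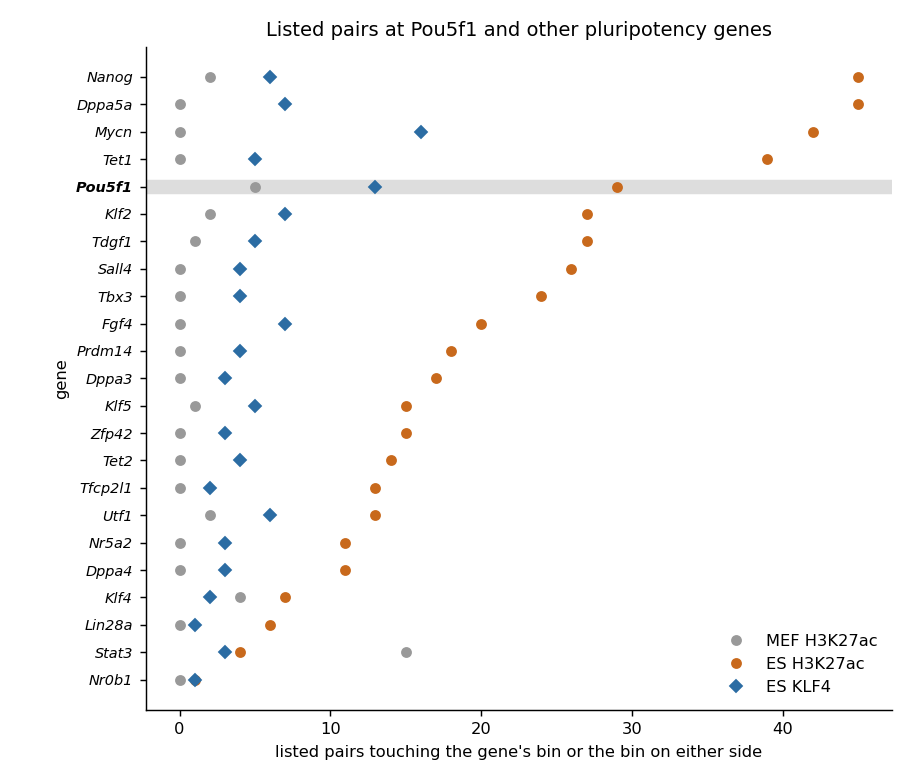
Number of listed pairs that touch a gene's bin or the bin on either side, for Pou5f1 (shaded) and 22 other pluripotency genes, in MEF H3K27ac, ES H3K27ac and ES KLF4. Pou5f1, at 29 for ES H3K27ac and 13 for ES KLF4, lies below 4 of the 22 in the first and below 1 in the second.

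The genes whose number of pairs over the 9 lists was most like that of Pou5f1 were found by the Euclidean distance of log2(number + 1). The nearest was Pcbp2, a poly(C)-binding RNA protein gene on chromosome 15, at a distance of 0.98, with 5 MEF, 27 ES, 29 TKO 0 h and 27 TKO 24 h H3K27ac pairs. Next came Cldn6, Hcfc1r1, Thoc6 and Tnfrsf12a, which share 1 bin on chromosome 17 and so count once (1.02), with 7, 22, 27 and 24. They had 13 ES KLF4 pairs each, as Pou5f1 did.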

How the data were processed

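Interaction lists for 9 groups (25 libraries) and domain lists for MEF and ES Hi-C were used. The alignment used Bowtie2 2.2.3 and mm10, per the submitters' processing notes; the contact caller is not given in the sources used here. The authors deposited, for each 10 kb bin pair and library, raw counts of contacts and CPM, per the file headers. Count over CPM was constant within a chromosome. For Hi-C the deposited column of that name is a signal that the authors scaled by unstated constants. The p-values and FDR are the authors' deposited values per list. Their distance-normalized columns were not used.

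Tests used edgeR 4.0.16 (quasi-likelihood, TMM, filterByExpr, Benjamini-Hochberg, called at an adjusted p under 0.05) on the counts of all pairs listed in both groups. Pairs listed in one group could not be tested. Library sizes were contact totals (count over CPM), and for Hi-C the summed listed counts. Libraries of a group that agreed within sampling noise (chi-square p of 0.05 or more over pairs at 2 or more times the minimum, while others of the group differed) were joined. The series text speaks of biological replicates without naming cultures, so p-values measure the spread between these libraries, which may be technical. On simulated data, 2-fold changes were recovered in 66.5% (MEF to ES H3K27ac, 17901 pairs), 77.5% (day 3 to ES, 7387), 86.0% (day 6 to ES, 2076), 77.5% (TKO, 67723) and 30.0% (Hi-C, 124544) of 200 changed pairs. DESeq2 1.42.0 and other settings were alternatives. Named were the called pairs, in each list the 5 strongest and the 2 longest pairs, the pairs in most lists, all partner genes and the 5 genes nearest in pattern, without those within 1 Mb. The members, lists and rules were chosen with earlier results of these data known.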

Additional observations from a re-analysis of the deposited data

Results flagged for a closer look

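In ES KLF4, the contact of the Pou5f1 bin with the bin directly upstream measured 13.9 CPM in replicate 4 and 9.69 to 10.3 CPM in the other 3 libraries, a gap of 0.853 of the group's range. It was the only one found among 15 sets of 4 libraries tested. Chance gives about 1 in 20 for each set, so 1 among 15 is not unusual. The pair was listed in no day 3 or day 6 library, so no comparison rests on it.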

How the results depend on the processing

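Counting the Pou5f1 bin alone gave 0 pairs for MEF H3K27ac, 17 for ES, 11 for TKO 0 h, 9 for TKO 24 h, 1 for day 3 KLF4, 0 for day 6, 7 for ES KLF4, 0 for MEF Hi-C and 5 for ES Hi-C. With pairs at 2 or more times the minimum, MEF H3K27ac kept 2, day 3 KLF4 1, day 6 KLF4 0, MEF Hi-C 2 and ES Hi-C 11. At equal list length, day 3 KLF4 held 1 and ES KLF4 5. Allowing 1 bin, days 3 and 6 shared 2 pairs. Called pairs, MEF to ES: DESeq2 1, one library left out 2 to 3. Day 3 to ES: contact totals without TMM 0, DESeq2 0, ES replicates 1 and 2 alone 0, one library left out 0 to 2. Day 6 to ES: contact totals without TMM 2, every library separate 2, one library left out 0 to 1. Libraries of the same replicate number had nearly uncorrelated deviations from their group means (-0.0523 to 0.0430). At low counts sampling noise can hide a shared batch, so this does not show that the libraries were unpaired. With the replicate block, which also kept libraries separate, day 3 to ES gave 0, day 6 to ES 2 and MEF to ES 4. TKO and Hi-C stayed at 0 under every alternative run. Signs of log2 changes turned at uncalled pairs: for 11 of the 21 TKO pairs in at least 1 alternative (27 of 236 values, -0.25 to 0.15), among them the Pou5f1 bin with its upstream neighbour (-0.084 without TMM, -0.098 to 0.059 with a library left out), with the bin 20 kb upstream (-5.85e-05 without TMM) and with the Tcf19 and Cchcr1 bin (-0.096 to 0.036 with a library left out), and in Hi-C the Tcf19 and Cchcr1 bin with Psors1c2 (-0.052 to 0.61, the lowest without ES replicate 2). Without TMM the median of all pairs was -0.099 in TKO and -0.33 in Hi-C. The cause of these changes was not tested. The settings for single ES KLF4 library pairs and for joining TKO 0 h replicates 2 and 3 were chosen after seeing the data. Day 3 and day 6 could not be tested against each other, with 0 common pairs. Depth limits the weak pairs most: the day 3 contact of the Tcf19 and Cchcr1 bin with Cdsn rests on 9, 21 and 15 contacts.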
